A study of Mus musculus with 4 samples.

Results

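Cytosolic ribosomal protein genes were followed in RNA sequencing of adult mouse testes, in 2 Fam46c knockout (KO) and 2 wild-type (WT) libraries. The genes were chosen by symbol alone, as Rpl or Rps symbols with a number, together with Rpsa, Rplp0, Rplp1 and Rplp2 and without the S6 kinase genes of the Rps6k series. This gave 85 of the 22552 symbols in the tables, 52 of the large and 33 of the small ribosomal subunit, each on a single row. Of these, 4 were listed at 0 in every library, 10 were above 0 with a mean under 1 FPKM, and 71 had a mean of at least 1 FPKM. The 71 include the testis paralogs Rpl10l and Rpl39l, which are kept apart below, so that 69 others were tested. FPKM count sequenced fragments relative to transcript length and to the library's mapped fragments. Levels of different genes can be set side by side only as far as fragments were assigned to the right gene.

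All 4 libraries came from testes of adult male mice of a DBA/C57 F1 background, and the KO group differed in carrying the Fam46c knockout. The stated purpose of the series was to find testis genes that depend on FAM46C, which belongs to the noncanonical poly(A) polymerases and lengthens the adenosine tails of RNAs. The labels give neither the mutated segment of the gene nor whether replicates were separate animals, so p-values reflect variation among these 4 libraries alone, possibly technical. Fam46c itself had 130.5 and 129.9 FPKM in the KO libraries, against 236 and 134 FPKM in the WT libraries. Both KO values lay below both WT values, but 1 WT library was close to them (limma log2 fold change -0.45, Benjamini-Hochberg adjusted p = 1.00), and because the mutated segment is not given, this level does not check the labels.

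The tables carry no read counts. The smallest steps in low FPKM values put the libraries at about 16900000 and 19500000 fragments for KO and 19400000 and 21600000 for WT, a rough estimate from 418 genes with a single transcript. KO replicate 1 was the shallowest and had the highest total FPKM, 528756, against 489702 to 498299 in the other 3 libraries. Testis markers were present: 10 elongating spermatid markers summed to 74679 and 60524 FPKM in KO and to 53668 and 68234 FPKM in WT, and all 10 meiotic markers on the list were above the test's minimum in mean level. Blood markers were lower in KO, with 4 of 4 tested genes negative, 2 of them called, and sums of 12.7 and 8.90 FPKM in KO against 50.7 and 40.9 FPKM in WT. Leydig cell markers summed to 713 and 385 FPKM in KO and to 1353 and 1476 FPKM in WT. Of 9 tested, 7 were negative and 1, Insl3, was called. Insl3 alone had 379 and 189 FPKM in KO and 1100 and 1136 FPKM in WT. It made up most of the WT sums, so the sums say little about the other Leydig markers. No gene of the blood and Leydig lists was at 0 in every library. The part of these marker differences in the ribosomal protein values was not tested. In bulk tissue fewer cells of a type and less RNA per cell cannot be told apart.

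The cytosolic ribosome reads messenger RNA on its small subunit and joins amino acids on its large subunit, and nearly every one of its proteins is present in a single copy per particle. Mammalian genomes hold many retrocopies of these genes, most of them pseudogenes, and a few retrocopies have become genes of their own. The X chromosome is silenced in male meiosis, and autosomal paralogs of X-linked ribosomal protein genes, such as Rpl10l and Rpl39l, are active in male germ cells, where mouse knockouts of either gene impair sperm formation.

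How the deposited values separate a paralog from its parent, and a retrocopy from its source, depends on the bases in which they differ, so 3 pairs are shown first. Each line is read from the coding sequence in GENCODE M21 (GRCm38), 5′ to 3′, and capitals mark bases that differ from the other member of the pair. Rpl39l (chr16:10170226-10174911, plus strand) and X-linked Rpl39 (chrX:37082520-37085402, minus strand), which line the tunnel through which the new protein leaves the ribosome, are shown whole and differ at 23 of 156 coding bases.
Rpl39l: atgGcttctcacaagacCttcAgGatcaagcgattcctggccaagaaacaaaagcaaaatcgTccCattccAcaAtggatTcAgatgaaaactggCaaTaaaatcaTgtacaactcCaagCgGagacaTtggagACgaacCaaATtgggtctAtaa
Rpl39: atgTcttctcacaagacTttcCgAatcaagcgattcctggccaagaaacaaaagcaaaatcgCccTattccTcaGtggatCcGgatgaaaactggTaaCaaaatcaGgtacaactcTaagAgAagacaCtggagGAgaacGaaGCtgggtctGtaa
The first 156 of 645 coding bases are shown for Rpl10l (chr12:66283379-66284401, minus strand) and X-linked Rpl10 (chrX:74270812-74273135, plus strand), a protein needed for the joining of the subunits. The whole coding sequences were 84.8% identical, with no identical run longer than 23 bases.
Rpl10l: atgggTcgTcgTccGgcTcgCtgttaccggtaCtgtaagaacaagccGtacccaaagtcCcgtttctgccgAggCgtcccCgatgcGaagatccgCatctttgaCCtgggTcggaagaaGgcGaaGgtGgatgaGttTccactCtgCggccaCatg
Rpl10: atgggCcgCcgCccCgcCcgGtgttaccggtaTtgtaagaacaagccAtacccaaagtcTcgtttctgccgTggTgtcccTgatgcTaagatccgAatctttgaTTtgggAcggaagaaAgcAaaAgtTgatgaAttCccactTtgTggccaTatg
The third pair is Rpl36 (chr17:56613416-56614243, plus strand) and its processed pseudogene Gm13611 (chr2:32271845-32272162, plus strand), with the first 156 of 318 bases. These differ at 5 bases in all and share an identical run of 214 bases.
Gm13611: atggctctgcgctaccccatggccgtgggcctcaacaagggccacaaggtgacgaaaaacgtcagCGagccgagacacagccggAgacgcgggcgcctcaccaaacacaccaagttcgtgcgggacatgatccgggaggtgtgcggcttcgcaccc
Rpl36: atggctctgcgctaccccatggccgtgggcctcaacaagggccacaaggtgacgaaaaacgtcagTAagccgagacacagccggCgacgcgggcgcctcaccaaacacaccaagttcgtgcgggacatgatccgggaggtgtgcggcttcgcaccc
The longest identical run is 38 bases between Rpl39l and Rpl39, so any stretch of 50 coding bases tells these paralogs from their parents, as it does for Rpl10l and Rpl10. Most of Rpl36 cannot be told from Gm13611 in this way.

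Listed levels of ribosomal protein transcripts covered a wide range in each library, although the proteins are needed in nearly equal numbers. The median over all 85 members, those at 0 included, was 5.47 FPKM, while 21 members reached 100 FPKM and held 91.4% of the summed level. A further 14 members lay at 10 to 100 FPKM with 6.43% of the sum, 36 at 1 to 10 FPKM with 2.07%, and the 10 lowest held 0.0605%. Across tested members, the highest mean was 1348 times the lowest.

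**Figure D1:**
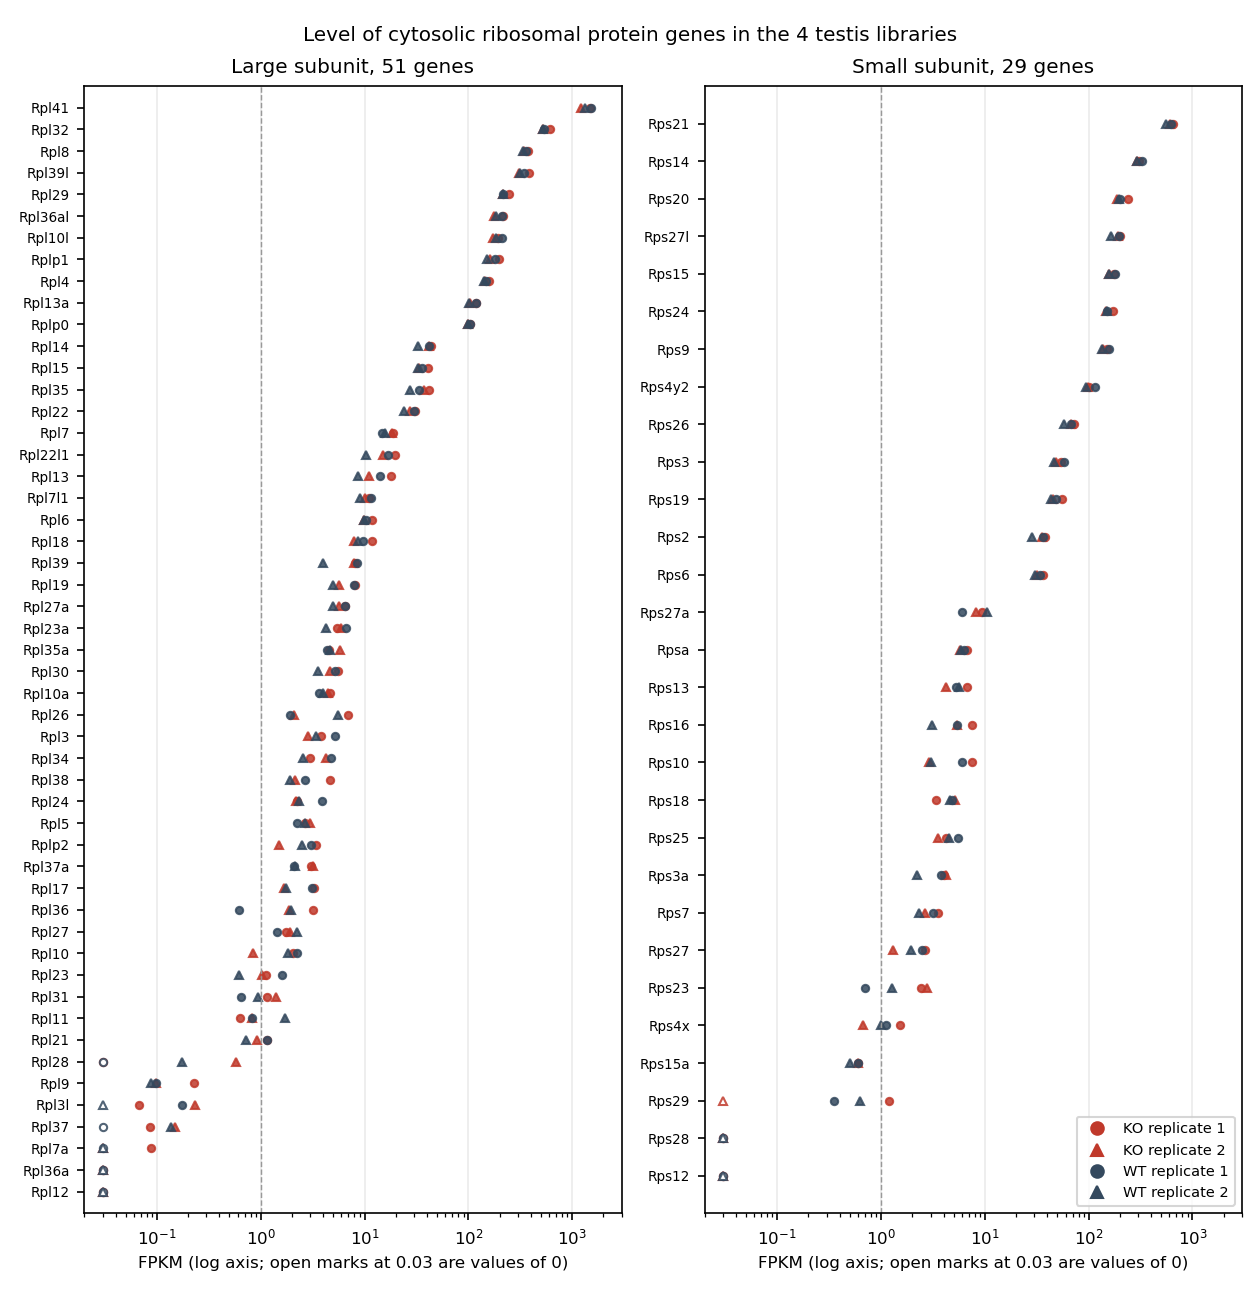
FPKM (log axis) of 51 large subunit genes (left panel) and 29 small subunit genes (right panel) in KO replicates 1 and 2 (red) and WT replicates 1 and 2 (dark blue), with values of 0 drawn as open marks at the left edge. Genes run over several orders of magnitude, from Rpl41 at 1227 FPKM or more in every library to 4 genes at 0, while the 4 marks of a highly expressed gene lie close together.

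Rpl41, which encodes the smallest ribosomal protein, was highest, with 1492 and 1227 FPKM in KO and 1529 and 1337 FPKM in WT. Rps21, a small subunit protein, followed with 657 and 606 FPKM in KO and 622 and 558 FPKM in WT. Rpl32, a large subunit protein, had 612 and 527 FPKM in KO and 540 and 523 FPKM in WT. In all 3 genes the KO and WT values overlapped, and together they held 37.5% of the summed level of the family. Rpl8, which lies next to the centre that forms peptide bonds, had 379 and 341 FPKM in KO and 362 and 335 FPKM in WT. Rps14, on the platform of the small subunit, had 309 and 294 FPKM in KO and 324 and 293 FPKM in WT. In these, too, the groups overlapped. Rpl29 averaged 230 ± 22.4 FPKM in KO and 216 ± 1.60 FPKM in WT, Rps20 averaged 214 ± 36.4 in KO and 198 ± 4.63 in WT, and Rpl36al, an autosomal paralog of X-linked Rpl36a, averaged 197 ± 26.8 in KO and 198 ± 16.5 in WT (SD, n = 2 each). Other members of at least 100 FPKM included Rps27l, Rplp1, Rps15, Rps24, Rpl4, Rps9, Rpl13a, Rps4y2 and Rplp0, beside the testis paralogs, and the means of these 9 ran from 102 to 188 FPKM. The 14 members at 10 to 100 FPKM were Rps26, Rps3, Rps19, Rpl14, Rpl15, Rpl35, Rps2, Rps6, Rpl22, Rpl7, Rpl22l1, Rpl13, Rpl7l1 and Rpl6, among them Rps19, the gene most often mutated in human Diamond-Blackfan anaemia, with 55.6 and 45.3 FPKM in KO and 48.9 and 43.1 FPKM in WT.

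The stalk that recruits translation factors to the large subunit was split in level. Its base, Rplp0, had 105 and 98.8 FPKM in KO and 104 and 99.8 FPKM in WT, and Rplp1 had 195 and 161 FPKM in KO and 181 and 151 FPKM in WT. Rplp2, which pairs with Rplp1 in the stalk, had 3.45 and 1.52 FPKM in KO and 3.02 and 2.49 FPKM in WT. The listed levels of the partner transcripts of 1 protein dimer stood far apart in every library. Only 39.2% of the stretches of 50 coding bases in Rplp1 and 33.4% in Rplp2 are found in no other gene. Genes of the proteins that carry the 5S RNA into the large subunit and also bind Mdm2, the brake on p53, were both listed low. Neither gene, Rpl5 or Rpl11, has a stretch of 50 coding bases found in no other gene, so these levels are uncertain. Rpl5 had 2.69 and 2.97 FPKM in KO and 2.23 and 2.69 FPKM in WT, and Rpl11 had 0.627 and 0.819 FPKM in KO and 0.820 and 1.72 FPKM in WT.

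The 4 genes listed at 0 in all libraries were Rpl12, Rpl36a, Rps12 and Rps28, and no fold is given for them. Rps28 is a small protein at the messenger RNA exit, and Rps12 lies on the head of the small subunit. The proteins of Rpl12, Rps12 and Rps28 belong to every cytosolic ribosome, while Rpl36a has the autosomal paralog Rpl36al. For all 4 genes, a value of 0 here says only that the gene is listed at 0. The 10 genes above 0 with a mean under 1 FPKM included Rpl11, Rpl21, Rps15a, Rps29, Rpl28, Rpl9, Rpl3l, Rpl37 and Rpl7a. Rpl7a was at 0.0869 FPKM in KO replicate 1 and at 0 in the other 3 libraries. Rpl3l, a paralog of Rpl3 known from heart and skeletal muscle, had 0.0674 and 0.234 FPKM in KO and 0.176 and 0 FPKM in WT. The lowest tested members included Rpl31, Rps4x, Rpl23, Rpl10, Rps23, Rpl27, Rpl36, Rps27 and Rpl17, with means from 1.04 to 2.45 FPKM.

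Low members were also the least reproducible. The coefficient of variation over the 4 libraries had a median of 7.20% in the 19 members of at least 100 FPKM other than the testis paralogs, and of 25.9% in tested members under 10 FPKM. By the depth estimate, members of at least 100 FPKM rest on about 1470 or more fragments in their lowest library (Rps4y2, with no estimate, apart), while those at 1 to 10 FPKM rest on between about 4.61 (Rpl36) and 218 (Rpsa). These estimates assume that all fragments of a gene were assigned to it.

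The level of a member moved with the share of its coding sequence that no other gene repeats. For each member, every stretch of 50 coding bases was looked up in the transcripts of all other genes of GENCODE M21, pseudogenes included. Of 84 members with a coding sequence, 28 had no stretch of their own, and these had a median of 2.27 FPKM. Of those 28, 24 lay under 10 FPKM, among them all 4 genes at 0. The 40 members with a unique share above 0 and under 50% had a median of 4.84 FPKM, and 7 of them reached 100 FPKM. The 16 members with at least 50% had a median of 178 FPKM, 12 of them reached 100 FPKM, and Rpl3l was the only one of these 16 under 10 FPKM. Across the 84 members, which share all libraries, Spearman's rho between mean level and unique coding share was 0.57, and with stretches of 100 bases it was 0.58 over 83 members. With whole transcripts in place of coding sequences, rho was 0.37 and 0.46 for the same stretch lengths, and with coding length it was 0.028. The sources used here do not give how fragments matching several genes were shared out, and the part of sequence sharing in these levels was not tested.

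**Figure D2:**
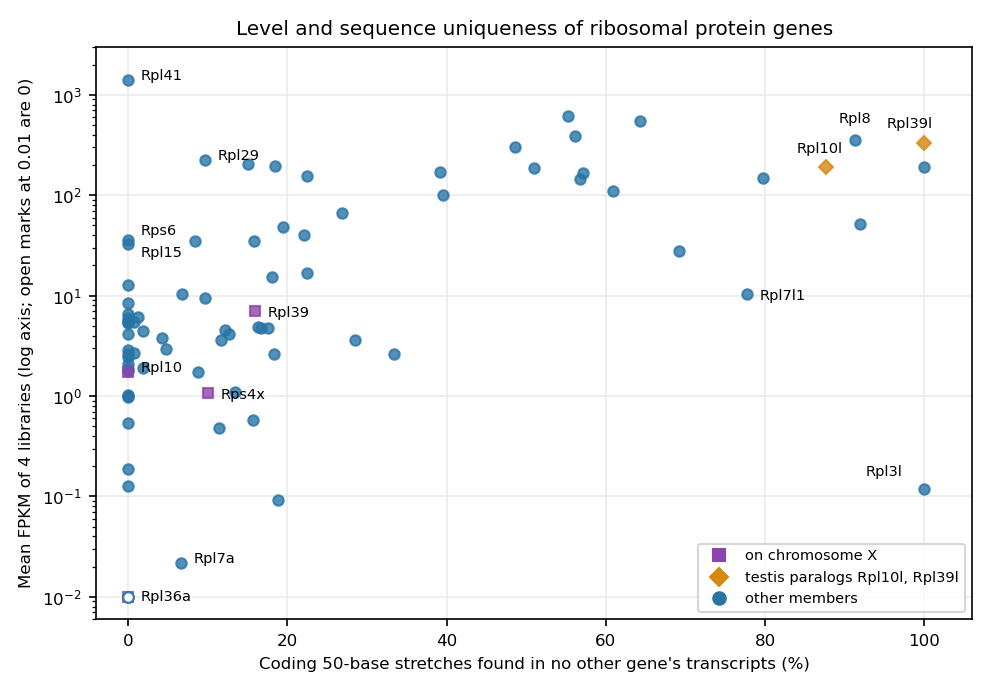
Mean FPKM over the 4 libraries (log axis) against the percent of coding 50-base stretches found in no other gene's transcripts, 1 mark per ribosomal protein gene, with X-linked genes as squares and the testis paralogs as diamonds. Most genes without unique stretches lie under 10 FPKM, Rpl41 being far above them, and most genes with over 50% unique stretches lie above 100 FPKM, Rpl3l being far below them.

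Rpl41 departs most from this pattern, at a mean of 1396 FPKM with no unique stretch in its 78 coding bases, although 56.1% of the stretches of its whole transcript were unique. Rps6, the target of the S6 kinases, averaged 33.8 ± 3.20 FPKM in KO and 32.2 ± 2.44 FPKM in WT (SD, n = 2 each) with no unique coding stretch and 15.4% unique over the transcript. Rpl7a, by contrast, combined the most near-identical genes, 84, with the lowest level above 0. Rpl29, however, had 62 such genes and a mean of 223 FPKM. Spearman's rho between mean level and the number of near-identical genes was -0.38 across 84 members. Near-identical genes are those matching at least 50% of the coding sequence with at least 90% identity, and they numbered 1054 over the family, 1034 of them pseudogenes. The median member had 9, and 19 members had a copy with an identical coding sequence. Rpl8, Rpl39l and Rpl3l were among the 4 that had none.

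Of the 1054 near-identical genes, 23 had their own row in the tables, beside 20 members. In 9 of these pairs the copy stood above the member, and 4 copies were at 0. Among copies above their member, the largest difference in FPKM was in the pair shown above: Gm13611 had 192 and 148 FPKM in KO and 172 and 156 FPKM in WT, while Rpl36 had 3.17 and 1.86 FPKM in KO and 0.619 and 1.94 FPKM in WT. Gm15421, a transcribed pseudogene 99.7% identical to Rpl22l1, had 77.0 and 68.2 FPKM in KO and 64.8 and 60.03 FPKM in WT. Rpl22l1 itself had 19.5 and 14.9 FPKM in KO and 16.8 and 10.4 FPKM in WT. In both pairs the processed copy carried most of the listed level. Rpl26, with 6.96 and 2.11 FPKM in KO and 1.91 and 5.54 FPKM in WT, was one of the most variable members, and its copies Gm15772 and Gm10136 averaged 23.2 and 18.6 FPKM over all libraries. Rpl26 and both copies summed to 51.5 and 42.0 FPKM in KO and to 47.8 and 42.2 FPKM in WT, a sum made up mostly of the copies. BC004004, annotated as protein coding and 98.6% identical to Rpl21, averaged 7.49 FPKM over all libraries, against 0.983 FPKM for Rpl21.

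Retrocopy paralogs of X-linked members stood far above their parents in all libraries. Rpl10l had 195 and 173 FPKM in KO and 209 and 185 FPKM in WT, while Rpl10 had 2.06 and 0.851 FPKM in KO and 2.22 and 1.84 FPKM in WT. The paralog was 94.1 to 203 times its parent in single libraries, and it made up 99.2 ± 0.394% of the pair in KO and 99.0 ± 0.0458% in WT (SD, n = 2 each). Rpl39l had 382 and 305 FPKM in KO and 343 and 311 FPKM in WT, while Rpl39 had 8.08 and 7.83 FPKM in KO and 8.48 and 3.95 FPKM in WT. The ratio was 39.0 to 78.9, and Rpl39l made up 97.7 ± 0.303% of the pair in KO and 98.2 ± 0.822% in WT (SD, n = 2 each). In both pairs the shares of the KO and WT libraries overlapped. Rpl10 has no unique coding stretch and 11 near-identical genes, so its own low level is less certain than that of Rpl10l, which has 87.6% unique stretches. Rpl39 has 15.9% in 50-base stretches and 84.2% in 100-base stretches, and Rpl39l has 100%.

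**Figure D3:**
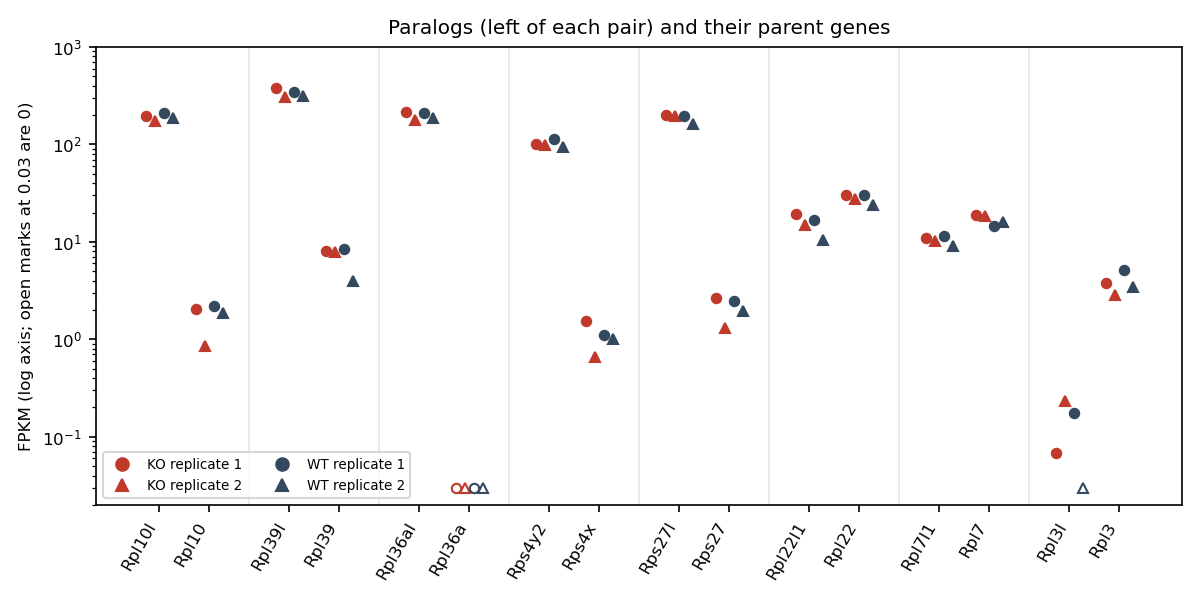
FPKM (log axis) of 8 paralogs, each to the left of its parent gene, in KO replicates 1 and 2 (red) and WT replicates 1 and 2 (dark blue), with values of 0 as open marks at 0.03. Rpl10l, Rpl39l, Rpl36al, Rps4y2 and Rps27l lie far above their parents in every library, while Rpl22l1, Rpl7l1 and Rpl3l lie below theirs.

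The other X-linked members, Rpl36a and Rps4x, were low as well. Rpl36a was at 0 in all libraries, beside 216 and 178 FPKM in KO and 209 and 186 FPKM in WT for its autosomal paralog Rpl36al, a protein of the tRNA exit site. Rps4x, a small subunit protein, had 1.53 and 0.665 FPKM in KO and 1.11 and 1.00 FPKM in WT. The symbol Rps4y2, matched through a synonym to the chromosome 6 gene Rps4l, had 101 and 99.2 FPKM in KO and 114 and 94.5 FPKM in WT, 66.1 to 149 times Rps4x. GENCODE M21 lists it as a transcribed processed pseudogene with no coding sequence, so whether it adds a ribosomal protein is not answered by these tables. All 4 X-linked members thus had means under 10 FPKM, and their autosomal paralogs had means of at least 100 FPKM. Low levels were not particular to X-linked members. Of the 85 members, 36 lay at 1 to 10 FPKM, 10 above 0 and under 1 FPKM, and 4 at 0. Rpl36a has no coding stretch of 50 bases of its own, and most of those in Rps4x are shared with other genes. The levels of both are therefore uncertain, and the part of X linkage in them was not tested.

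High paralogs, as listed, were not limited to X-linked parents. Rps27l, an autosomal paralog known as a p53 target, had 200 and 194 FPKM in KO and 196 and 163 FPKM in WT. Its parent Rps27, on chromosome 3, had 2.66 and 1.30 FPKM in KO and 2.46 and 1.96 FPKM in WT. The ratio was 75.3 to 149. Rps27 has 10 near-identical genes and no unique coding stretch of 50 bases, and 1.4% of its transcript stretches are unique. Its low level, and with it this ratio, is therefore uncertain. In the other autosomal pairs the paralog, as listed, was below its parent. Rpl22l1 was 0.434 to 0.635 times Rpl22, a protein with known roles in lymphocyte development, which averaged 29.0 ± 2.36 FPKM in KO and 27.0 ± 4.30 FPKM in WT (SD, n = 2 each). With its near-identical copy Gm15421 added, however, Rpl22l1 averaged 89.8 FPKM in KO and 76.0 FPKM in WT, above Rpl22, so the direction of this pair turned with the copy included. Rpl7l1 was 0.556 to 0.786 times Rpl7, with 11.0 and 10.2 FPKM in KO and 11.6 and 9.13 FPKM in WT. Rpl3l was at most 0.0820 times Rpl3.

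Promoters of the family were described from RefSeq (GRCm38.p6), whose windows run from 250 bases before to 50 after each start, and 76 windows matched 64 members. Motifs were searched on both strands. CCGGAAG, the core bound by the ETS factor GABP, was in 35.5% of member windows, against 8.86% of all 32851 windows. CTCTTTCC, a pyrimidine tract like the one that opens ribosomal protein transcripts, was in 17.1%, against 3.12%. AAGATGG, a YY1 core, was in 15.8%, against 6.34%, and TATAAA was in 9.21%, against 13.6%. TGACGTCA, the full cAMP response element, was in 6.58%, against 1.79%. The 100 bases before the start are shown for the exit tunnel pair, an autosomal and an X-linked gene with far apart levels, with these motifs in capitals. They lie at chr16:10170128-10170227 on the plus strand for Rpl39l and at chrX:37085223-37085322 on the minus strand for Rpl39. The starts are those of RefSeq and differ from the GENCODE starts given above. The Rpl39 stretch lies wholly within the GENCODE gene, and that of Rpl39l runs slightly into its gene.
Rpl39l promoter: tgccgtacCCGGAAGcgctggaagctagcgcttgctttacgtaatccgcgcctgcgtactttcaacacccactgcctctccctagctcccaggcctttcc
Rpl39 promoter: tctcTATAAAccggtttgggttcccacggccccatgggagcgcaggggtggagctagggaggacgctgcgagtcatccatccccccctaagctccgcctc
Rpl39l holds a CCGGAAG match in the bases shown, and Rpl39 holds a TATAAA match there and a CCGGAAG match elsewhere in its window. No motif searched was found in the windows of Rpl10l or Rpl10. Letters that match are a description and say nothing of which factor acts there.

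The summed level of the family did not differ between KO and WT by more than the spread of the libraries. Without the testis paralogs, the remaining 83 members summed to 6802 and 5956 FPKM in KO and to 6558 and 5880 FPKM in WT. The means were 6379 ± 598 FPKM in KO and 6219 ± 479 FPKM in WT (SD, n = 2 each), a ratio of 1.03, and replicate 1 was the higher library in both groups. The ratio was 1.01 for the large and 1.04 for the small subunit, and 1.05 without Rpl41. Members took 1.29% and 1.22% of total FPKM in KO and 1.32% and 1.18% in WT. The large subunit sum was 1.31 and 1.23 times the small subunit sum in KO and 1.30 and 1.31 times in WT.

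None of the 69 tested members was called at a Benjamini-Hochberg adjusted p under 0.05 in limma, where 14 of all 12258 tested symbols were called, or 0.114%. At an unadjusted p under 0.05 there were 6 members, all higher in KO, where 2.02% of all tested symbols passed, 0.914% higher and 1.11% lower in KO. Positive log2 fold changes were found for 52 members and negative ones for 17, and 75.4% positive compares with 47.7% of all tested symbols. The median log2 fold change was 0.095 for the members and -0.0065 for all tested symbols, both on the scale of FPKM + 1, which understates changes of low genes. By subunit, 33 of 40 large and 19 of 29 small subunit members were positive, with medians of 0.092 and 0.097. Most values were small, 49 of 69 lying within 0.2 of 0.

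**Figure D4:**
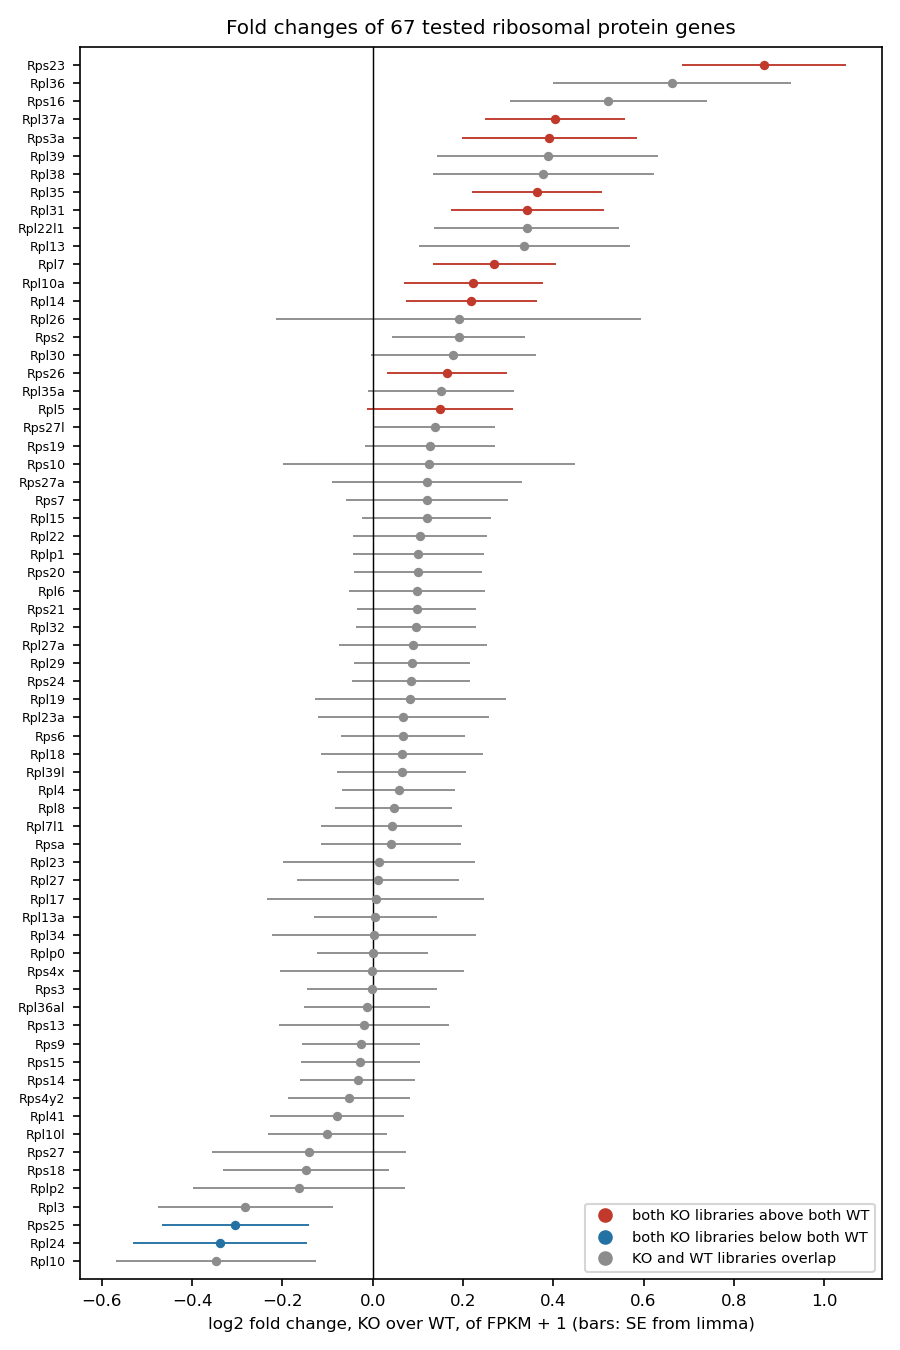
Log2 fold change of FPKM + 1, KO over WT, for 67 tested ribosomal protein genes, with bars for the standard error from limma and colour for whether the libraries of the groups overlap. Values run from -0.35 for Rpl10 to 0.87 for Rps23, and most lie within 0.2 of 0.

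Highly expressed members sat in a narrow band. The 19 members of at least 100 FPKM ran from -0.079 (Rpl41) to 0.14 (Rps27l), 12 of them positive, with a median standard error of 0.13. Among members under 10 FPKM the median standard error was 0.19, and the extremes of the family lay there. Of the testis paralogs, Rpl10l lay just below this band and Rpl39l within it: Rpl10l had a log2 fold change of -0.10 (SE 0.13) and Rpl39l of 0.064 (SE 0.14), both with a limma adjusted p of 1.00 and with overlapping groups. For Rpl39l the sign depended on single libraries, being -0.097 without KO replicate 1.

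Rps23, a protein of the decoding centre where tRNA is matched to messenger RNA, had the largest difference. It had 2.43 and 2.76 FPKM in KO and 0.705 and 1.28 FPKM in WT, so that both KO libraries were above both WT libraries. Its difference on the log2 scale was 0.87, with a standard error of 0.18 and an adjusted p of 0.21 in limma, and it ranged from 0.66 to 1.08 as each library was left out. In its lowest library this gene rests on about 12.8 fragments, and none of its coding stretches of 50 bases is unique. Rpl37a, with a zinc-binding fold, had 3.03 and 3.20 FPKM in KO and 2.09 and 2.13 FPKM in WT, again without overlap. Its log2 fold change was 0.40 (SE 0.15), and the limma adjusted p was 1.00. In its lowest library Rpl37a rests on about 22.6 fragments, and 18.3% of its coding stretches of 50 bases are unique.

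Rpl35, near the mouth of the exit tunnel, was the only one of the 6 above 10 FPKM. It had 41.5 and 37.4 FPKM in KO and 33.7 and 27.3 FPKM in WT, without overlap, with a difference of 0.36 on the log2 scale (SE 0.14, adjusted p = 1.00 in limma). Rps16 had 7.52 and 5.39 FPKM in KO and 5.40 and 3.13 FPKM in WT. No coding stretch of 50 bases is unique in Rps16, and 8.4% are unique in Rpl35. The log2 fold change of Rps16 was 0.52 (SE 0.22, limma adjusted p = 1.00), with KO replicate 2 just below WT replicate 1. Rpl36 reached 0.66 (SE 0.26, adjusted p = 1.00 in limma) with overlapping groups, and its lowest value, in WT replicate 1, corresponds to about 4.61 fragments. Summed with Gm13611, the pair had 196 and 150 FPKM in KO and 172 and 158 FPKM in WT, a ratio of means of 1.05. Gm13611 makes up nearly all of this sum, so a difference of the size of that of Rpl36 could not show in it. Other members among the 8 most positive were Rps3a (0.39), Rpl39 (0.39) and Rpl38 (0.38). Rps3a had 4.08 and 4.26 FPKM in KO and 3.81 and 2.23 FPKM in WT, without overlap. Rpl38, a regulator of Hox gene translation in mouse embryos, had 4.69 and 2.16 FPKM in KO and 2.65 and 1.91 FPKM in WT, with overlap. For Rpl39 and Rpl38 the sign turned when 1 library was left out, to -0.082 without WT replicate 2 and to -0.046 without KO replicate 1.

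The most negative members were also low in level. Rpl10 had the lowest log2 fold change at -0.35 (SE 0.22), set by KO replicate 2 at 0.851 FPKM. Rpl24, a protein of the subunit interface, had 2.25 and 2.18 FPKM in KO and 3.92 and 2.35 FPKM in WT (-0.34, SE 0.19). Rps25, needed in yeast and mammalian cells for translation from some internal ribosome entry sites, had 4.20 and 3.55 FPKM in KO and 5.49 and 4.56 FPKM in WT (-0.30, SE 0.16). Rpl24 and Rps25 were the 2 of the 69 tested members whose KO libraries both lay below both WT libraries, while 12 members lay above without overlap and 55 overlapped. Over all tested symbols, 9.47% lay above and 10.6% below in this way. The 12 included Rps23, Rpl37a, Rps3a, Rpl35, Rpl31, Rpl7, Rpl10a, Rpl14, Rps26 and Rpl5, and all but Rpl35, Rpl7, Rpl14 and Rps26 were under 10 FPKM. Rpl3, which helps form the peptidyl transferase centre, followed at -0.28, Rplp2 at -0.16, Rps18 at -0.15 and Rps27 at -0.14, with overlapping groups in each. The limma adjusted p was 1.00 for Rpl10, Rpl24, Rps25, Rpl3, Rplp2, Rps18 and Rps27. Without KO replicate 2 the sign turned for Rpl10 (0.016), Rplp2 (0.25) and Rps27 (0.19), and without KO replicate 1 it turned for Rps18 (0.10).

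The positive signs were not shared evenly among the libraries. In KO replicate 1, 43 of the 69 members had their highest value of the 4 libraries, and in WT replicate 2, 36 had their lowest. KO replicate 2 held the highest value of 8 members and the lowest of 19, and WT replicate 1 held the highest of 16 and the lowest of 13. Taken pair by pair, the median log2 difference of members was 0.085 for KO replicate 1 minus WT replicate 1 and 0.25 for KO replicate 1 minus WT replicate 2. It was -0.11 for KO replicate 2 minus WT replicate 1 and 0.069 for KO replicate 2 minus WT replicate 2. In the order of these 4 pairs, 52, 63, 18 and 46 of the 69 members were higher in KO, where 43.0%, 60.8%, 37.8% and 55.4% of all tested symbols were. Within groups the difference was as large, at 0.17 for KO replicate 1 minus KO replicate 2 and 0.19 for WT replicate 1 minus WT replicate 2. Over all tested symbols, the same 6 medians lay between -0.059 and 0.074. Leaving out KO replicate 1 gave 31 positive members of 69 and a median of -0.017, and leaving out WT replicate 2 gave 34 and -0.0027. Leaving out WT replicate 1 gave 58 and 0.15, and leaving out KO replicate 2 gave 62 and 0.20.

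**Figure D5:**
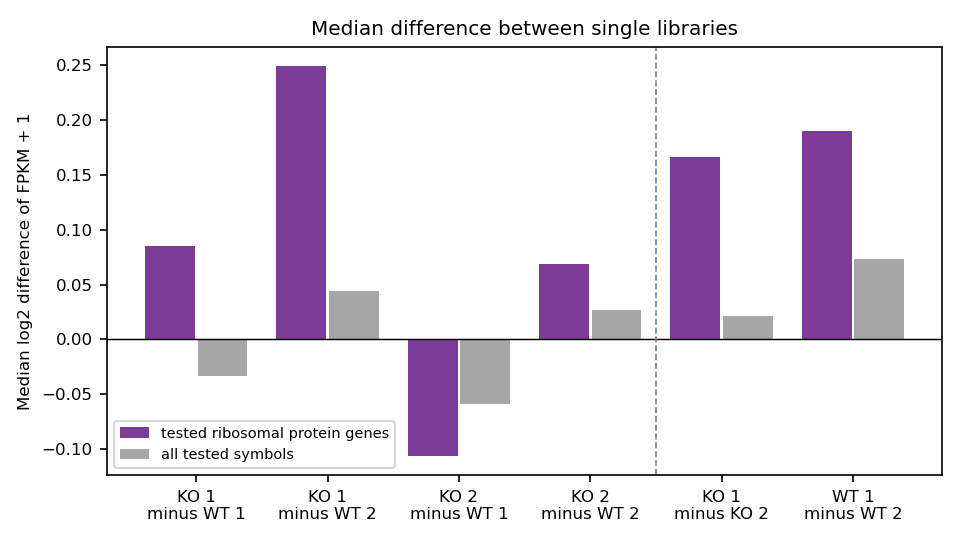
Median log2 difference of FPKM + 1 for each of the 6 pairs of libraries, for the 69 tested ribosomal protein genes (purple) and all 12258 tested symbols (grey), with the 4 KO minus WT pairs left of the dashed line and the 2 pairs within a group right of it. The members' medians within KO (0.17) and within WT (0.19) are of the size of the differences between groups, which run from -0.11 to 0.25.

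With all libraries in the fit, signs were mostly positive at every degree of sequence sharing, where 47.7% of all tested symbols were positive. These counts were not repeated with a library left out. Of members with no unique coding stretch of 50 bases, 16 of 19 tested were positive with a median log2 fold change of 0.12. Of those with a unique share above 0 and under 50%, 26 of 36 were positive with a median of 0.10. Of those with at least 50%, 10 of 13 were positive with a median of 0.047.

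Other genes of the ribosome and of translation gave no calls either. Ribosomal proteins that the symbol rule leaves out include Fau, a fusion of a small subunit protein with a ubiquitin-like protein, and Gnb2l1, also known as RACK1. Fau had 22.5 and 17.7 FPKM in KO and 19.5 and 17.1 FPKM in WT, with overlapping groups and a log2 fold change of 0.12, and that of Gnb2l1 was 0.039. Elongation factors had 6 positive and 5 negative members of 11 tested, initiation factors 26 and 14 of 40, and other transcripts with a 5′ terminal oligopyrimidine tract, the element shared by ribosomal protein messenger RNAs, 11 and 10 of 21. Eef1a1, which brings tRNA to the ribosome, had 484 and 420 FPKM in KO and 487 and 432 FPKM in WT. Ribosome biogenesis genes had 32 positive and 40 negative members of 72, RNA polymerase I genes 7 and 7 of 14 with Taf1a at 0 in all libraries, and regulators of ribosomal protein synthesis 9 and 20 of 29. Limma made 0 calls in these lists, and 0 of their genes passed an unadjusted p under 0.05.

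Within these lists the smallest p-values belonged to genes that were not called. Eef2k, the kinase that inhibits elongation factor 2, had 3.87 and 2.88 FPKM in KO and 5.28 and 3.92 FPKM in WT (log2 fold change -0.35). Fbl, the ribosomal RNA methyltransferase fibrillarin, had 6.20 and 7.28 FPKM in KO and 5.54 and 4.71 FPKM in WT (0.34). Eif3m, a subunit of initiation factor 3, had 12.2 and 11.5 FPKM in KO and 10.2 and 9.34 FPKM in WT (0.26). Snhg1, a snoRNA host transcript with a terminal oligopyrimidine tract, had 6.27 and 6.77 FPKM in KO and 8.03 and 8.55 FPKM in WT (-0.30). Eif4ebp3, an inhibitor of cap-dependent initiation, had 8.38 and 7.25 FPKM in KO and 6.41 and 5.95 FPKM in WT (0.29). For all 5 genes the limma adjusted p was 1.00, and in none did the groups overlap. They were picked by smallest p. Over all tested symbols, 9.47% lay above and 10.6% below in KO without overlap.

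Mitochondrial ribosomal proteins, which build a separate ribosome inside mitochondria, had 44 positive and 31 negative members of 75 tested, a median difference of 0.020 on the log2 scale and 0 calls in limma. At an unadjusted p under 0.05 in limma, 2 of the 75 passed, both higher in KO. Of all tested symbols 2.02% passed, 0.914% higher and 1.11% lower in KO. Mrps36 had 9.42 and 13.4 FPKM in KO and 7.48 and 9.09 FPKM in WT (log2 fold change 0.41), and Mrps6 had 28.0 and 26.2 FPKM in KO and 21.0 and 22.8 FPKM in WT (0.30), both with a limma adjusted p of 1.00. The mitochondrial family summed to 2421 and 2150 FPKM in KO and to 2315 and 2113 FPKM in WT. Replicate 1 was the higher library in each group, as in the cytosolic family. This order was not particular to ribosomal proteins. It held for the sums of elongation factors, initiation factors, ribosome biogenesis genes, RNA polymerase I genes and meiotic markers. It did not hold for elongating spermatid markers in WT or round spermatid markers in KO.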

How the data were processed

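RNA of adult mouse testes was measured in 2 Fam46c KO and 2 WT libraries, grouped by their titles and genotype labels. The deposited values are FPKM per gene symbol, 1 table per library, per the file headers. TopHat2 2.0.6, Cufflinks 2.0.2, Cuffdiff and mm9 are named per the submitters' processing notes, which assign them no steps. Not given in the sources used here are the gene annotation, strand setting and treatment of fragments matching several genes. FPKM of repeated symbols were summed. Tests used symbols averaging at least 1 FPKM, on log2(FPKM + 1) in limma 3.58.1 (R 4.3.3) with an intensity trend, two-sided, with Benjamini-Hochberg adjustment over all 12258 symbols and a threshold of 0.05. The fit was first tested on simulated data with known changes in genes averaging at least 5 FPKM. Those changes were larger than any of the tested members, so the simulation does not show how changes of the members' size are recovered.

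Coding sequences and copies came from GENCODE M21 (GRCm38) with blastn 2.17.0 at 90% identity and 50% coverage, while promoters and names came from RefSeq. All 85 members matched a RefSeq gene, 2 of them by synonym. The builds differ from mm9, so no coordinate of one was used with the other. Python 3.11.15, pandas 2.3.3, numpy 2.4.6 and matplotlib 3.10.9 did the rest.

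Members and gene lists were chosen with earlier results of these data known. Named genes were those at 0, the paralogs with their parents, X-linked members, the 10 highest and 10 lowest tested members, the 8 most positive and 8 most negative, members with an unadjusted p under 0.05 and, from other lists, up to 3 of smallest p. The other members named (Rplp0, Rplp1, Rps6, Rps19, Rpl5, Rpl11, Rpl26 and Rpl21 among them), their copies, and Eef1a1 were added after their values were seen. Alternatives changed the pseudocount, filter, scaling, variance model and replicate block, and left out each library. A few genes of the family are not reported by name here and are left out of the plots of single genes, but they are part of the counts and sums.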

Additional observations from a re-analysis of the deposited data

How the results depend on the processing

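With 2 libraries per group and no read counts, small differences on the log2 scale could not be separated from library spread, and members of a few FPKM rest on few fragments. The number of symbols called over all genes, 14 as reported, was 9 with a mean of at least 5 FPKM, 2 with no filter, 7 with total scaling, 6 with median scaling, 6 with quantile normalization and 8 with robust variance. It ranged from 9 (without KO replicate 2) to 20 (without KO replicate 1) as each library was left out. The number of members called was 0 under all of these settings. Deviations of same-numbered libraries from their group means correlated at -0.025 over 12258 symbols. This does not settle whether the replicate numbers pair the samples, and the labels do not say. In the summed level of the family, replicate 1 was the higher library in both groups. With the replicate number as a block, limma called 68 symbols and 1 member, Rps23 (log2 fold change 0.87, adjusted p = 0.00159), whose adjusted p ranged from 0.12 to 1.00 under the other settings. Positive members numbered 34 of 43 (79.1%) with a mean of at least 5 FPKM, and between 31 and 62 of 69 as each library was left out. The positive share was 68.1% with total scaling and 79.7% with median scaling. The KO over WT ratio of the summed level was 1.00 with total scaling and ranged from 0.958 to 1.09 as each library was left out, and the median log2 fold change ranged from -0.017 to 0.20. Of 257 values for 18 single genes, 248 kept their direction and side of the threshold and 8 changed sign, all as 1 library was left out. Their ranges were -0.71 to 0.016 for Rpl10, -0.046 to 0.80 for Rpl38, -0.082 to 0.86 for Rpl39, -0.097 to 0.23 for Rpl39l, -0.57 to 0.25 for Rplp2, -0.40 to 0.10 for Rps18 and -0.47 to 0.19 for Rps27, and Rpl39l was also at -0.0048 without WT replicate 2. The cause of these changes was not tested.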
